A study of Homo sapiens with 36 samples.

Results

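Human monocytic THP-1 cells that had received the p38 kinase inhibitor SB203580 were compared after 24 h of bacterial lipopolysaccharide (LPS) and after 24 h of the HIV envelope protein gp120. The comparison used 6 of the 36 arrays of the study, picked by their labels. The comparison itself was chosen with earlier results of these data known. On 3 arrays the cells had received 10 µM SB203580 for 15 min and then 1 µg/ml LPS (SB+LPS). On the other 3 the same inhibitor was followed by 1 nM gp120 of strain SF162 (SB+gp120). Both groups therefore carried the inhibitor and differed in the stimulus. The vehicles used in the study were 0.1% DMSO for SB203580 and 0.001% BSA for gp120. THP-1 is an established acute monocytic leukaemia line, so all values come from 1 line, and the study calls the 3 arrays of a group biological replicates without saying more of their source. Beside this pair stand LPS and gp120 without the inhibitor at 24 h, and SB+LPS and SB+gp120 at 4 h, again with 3 arrays a group. The study asked what p38 contributes to the response of monocytic cells to either stimulus. The pair described here gives the late LPS response that was present with the inhibitor, read against a viral protein.

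LPS is recognised at the surface of monocytes by CD14 and the TLR4 complex, which signals through MyD88 to NF-kB and the MAP kinases, and through TRIF to interferon genes. Early target genes encode cytokines, chemokines and feedback inhibitors. Secreted interferon then turns on antiviral genes through an interferon-stimulated response element (ISRE) in their promoters, and over a day the cells take on features of macrophages. The kinase p38 acts in this response largely on transcription factors and on the stability of cytokine mRNAs with AU-rich elements. The envelope protein gp120 binds CD4 and a chemokine receptor on monocytic cells.

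All 6 arrays lay on slide 2, with SB+gp120 in positions A to C and SB+LPS in positions D to F, so position on the slide and stimulus cannot be told apart. Mean raw signal ranged from 692.6 to 1572. The share of the 47222 probes with a detected signal was 38.3% to 43.8%, against 34.8% to 44.4% over all 36 arrays. The lowest signal belonged to SB+gp120 replicate 3, which stood apart from the others. Its correlation with the other SB+gp120 arrays was 0.974 and 0.978, where those had 0.992 between them and the SB+LPS arrays had 0.99 to 0.993. Values without this array are given for many of the named calls and counts of calls that turned on it, and not for all. Of 11 monocyte markers with a probe, all 11 were detected on all 6 arrays, and CD14, CSF1R and CD36 were called higher in SB+LPS. Without SB+gp120 replicate 3 the calls of CSF1R (0.98, adjusted p = 0.239) and CD36 (0.98, adjusted p = 0.162) ended, and that of CD36 (1.14) also ended without SB+gp120 replicate 2 or SB+LPS replicates 1 or 2. Their summed linear signal was 87900 to 118000 in SB+LPS and 65400 to 75500 in SB+gp120. Among markers of other blood cells, CD2 of T cells, CD79A and CD79B of B cells and NCAM1, KLRF1 and NKG7 of NK cells were detected on all 6 arrays, while CD3D, CD3E, CD3G, CD8A and CD5 of T cells, PAX5 of B cells and KLRD1 of NK cells were detected on none. The summed signal of the T cell markers was 99.2 to 136 in SB+LPS and 93.2 to 150 in SB+gp120, that of the B cell markers 448 to 472 and 424 to 724, and that of the NK cell markers 1320 to 2070 and 1650 to 2670. No fibroblast, epithelial or erythroid marker was detected on all 6, and no marker of another cell type was called.

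As a reference for the gp120 side, gp120 and control cells were compared at 24 h within slide 1. No gene was called (0 of 13582, 0%) with limma's test, 405 genes had an unadjusted p under 0.05, and the smallest adjusted p was 0.999. SB+gp120 against SB203580 alone at 4 h, within slide 3, gave 0 calls as well (0%), 539 genes with an unadjusted p under 0.05 and a smallest adjusted p of 0.833. Without SB+gp120 replicate 1 of 4 h, the second of these comparisons had 1 call. SB203580 alone at 24 h lay on another slide than SB+gp120, so that pair was not used here.

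Between SB+LPS and SB+gp120 at 24 h, limma's test called 622 of 13582 genes at an adjusted p under 0.05 (4.58%). Of these, 391 were higher in SB+LPS (2.88%) and 231 lower (1.7%), and 391 of the 622 differed at least 2-fold, 292 upward and 99 downward. All 3 arrays of one group lay beyond all 3 of the other for 3397 genes (25%), of which 1483 were higher (10.9%) and 1914 lower (14.1%). Without SB+gp120 replicate 3 the test called 370 genes, 268 higher and 102 lower. Without SB+LPS replicate 2 it called 409. Replicate numbers paired the arrays of this comparison, and a fit with the replicate as a block called 1264 genes, 673 of them higher. The rises were larger than the falls: the median difference of the 391 was 1.39 on the log2 scale and that of the 231 was −0.94. The median over all genes was −0.04. Under a scaling to equal medians the median gene shifted by 0.13, and higher genes made up 89.4% of the calls in place of 62.9%.

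**Figure D1:**
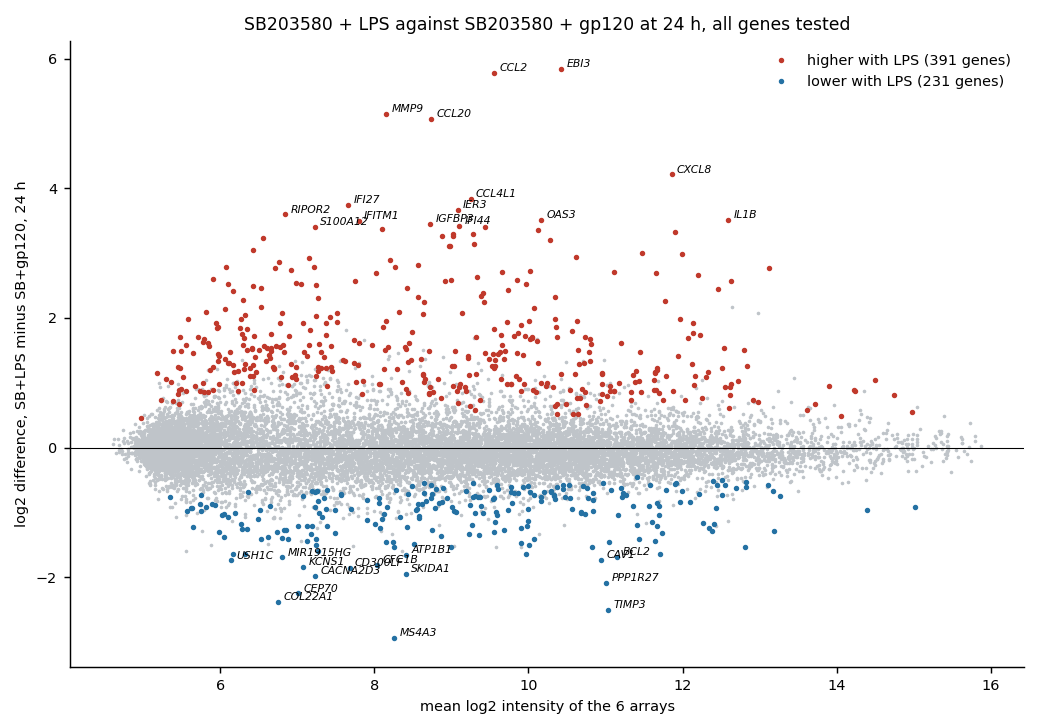
Each point is 1 of 13582 genes. The horizontal axis is its mean log2 intensity over the 6 arrays and the vertical axis the log2 difference between SB+LPS and SB+gp120 at 24 h. Red points are the 391 genes called higher and blue points the 231 called lower. The rises reach beyond 5 for EBI3, CCL2, MMP9 and CCL20, while the largest fall, MS4A3, stays near −3.

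Secreted inflammatory proteins had the largest rises. EBI3, the subunit that pairs with other chains to form interleukin 27 and related cytokines, read 13.11, 13.32 and 13.60 on the log2 scale in SB+LPS. The SB+gp120 arrays read 7.11, 7.65 and 7.76. The groups lay far apart, and EBI3 was 5.84 higher with LPS (SE 0.376, adjusted p = 1.51e-11), a 57.2-fold difference. CCL2, which attracts monocytes, read 13.60, 12.30 and 11.43 against 7.10, 6.31 and 6.60. The SB+LPS arrays were widely spread and still lay above every SB+gp120 array, and the difference was 5.78 (SE 0.728, adjusted p = 2.71e-06). CCL20, a ligand of CCR6, read 11.31, 11.36 and 11.12 against 6.68, 6.88 and 5.03. Its SB+LPS arrays agreed closely while SB+gp120 replicate 3 was the low one of its group. CCL20 was 5.07 higher (SE 0.451), and 4.48 higher without that array. CXCL8, which attracts neutrophils, read 14.70, 13.79 and 13.40 with LPS and 9.28, 10.19 and 9.79 with gp120. No array of one group reached the other, and CXCL8 was 4.21 higher (SE 0.399, adjusted p = 1.44e-08). CCL4L1, a macrophage inflammatory protein whose probe may also bind its near-identical paralogs, was 3.83 higher (SE 0.398, adjusted p = 7.71e-08).

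Of 17 chemokines tested, 8 rose, 1 fell and 8 were not called, with a median difference of 1.12. CXCL10, which attracts activated T cells and is induced by interferon, was not well above background in SB+gp120. It read 8.06, 8.31 and 8.14 in SB+LPS and 5.00, 4.87 and 4.95 in SB+gp120, with tight and separate groups. CXCL10 was at least 5.8-fold higher with LPS (adjusted p = 1.38e-09). Such a lower limit sets the SB+LPS mean against the lowest signal that was well above background on each array. CXCL13, which attracts B cells, was at least 4.12-fold higher (adjusted p = 2.23e-09). CCL23, the one chemokine that was lower and named after its values were seen, had −0.90 and was not called without SB+gp120 replicate 3 (−0.77).

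Cytokines followed the same split between a set of strong rises and genes that did not pass the test. Of 21 tested, 10 rose and 0 fell, with a median of 0.98, and 8 rose without SB+gp120 replicate 3. IL1B, the pyrogenic interleukin, read 14.50, 14.23 and 14.33 in SB+LPS against 10.41, 11.22 and 10.88 in SB+gp120. Every SB+LPS array was higher than every SB+gp120 array. The difference was 3.52 (SE 0.543, adjusted p = 6.39e-05). TNF, the tumour necrosis factor, read 13.08, 13.67 and 13.88 against 10.21, 11.00 and 11.41. The groups did not overlap. TNF was 2.67 higher (SE 0.413, adjusted p = 6.79e-05). IL6, the inducer of acute-phase proteins, read 8.54, 8.18 and 7.56 with LPS and 4.82, 5.24 and 5.91 with gp120. The groups did not overlap, and 1 of the 3 SB+gp120 arrays had a detected signal. IL6 was 2.77 higher (SE 0.36, adjusted p = 4.72e-06). IL23A, the specific subunit of interleukin 23, was 3.27 higher (SE 0.348, adjusted p = 1.1e-07). The interleukin antagonist IL1RN was 1.69 higher (SE 0.179, adjusted p = 1.04e-07). The anti-inflammatory cytokine IL10 read 11.24, 11.34 and 11.37 against 11.82, 11.21 and 11.52. Its groups overlapped, and the difference was −0.20 (SE 0.261, adjusted p = 0.804).

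**Figure D2:**
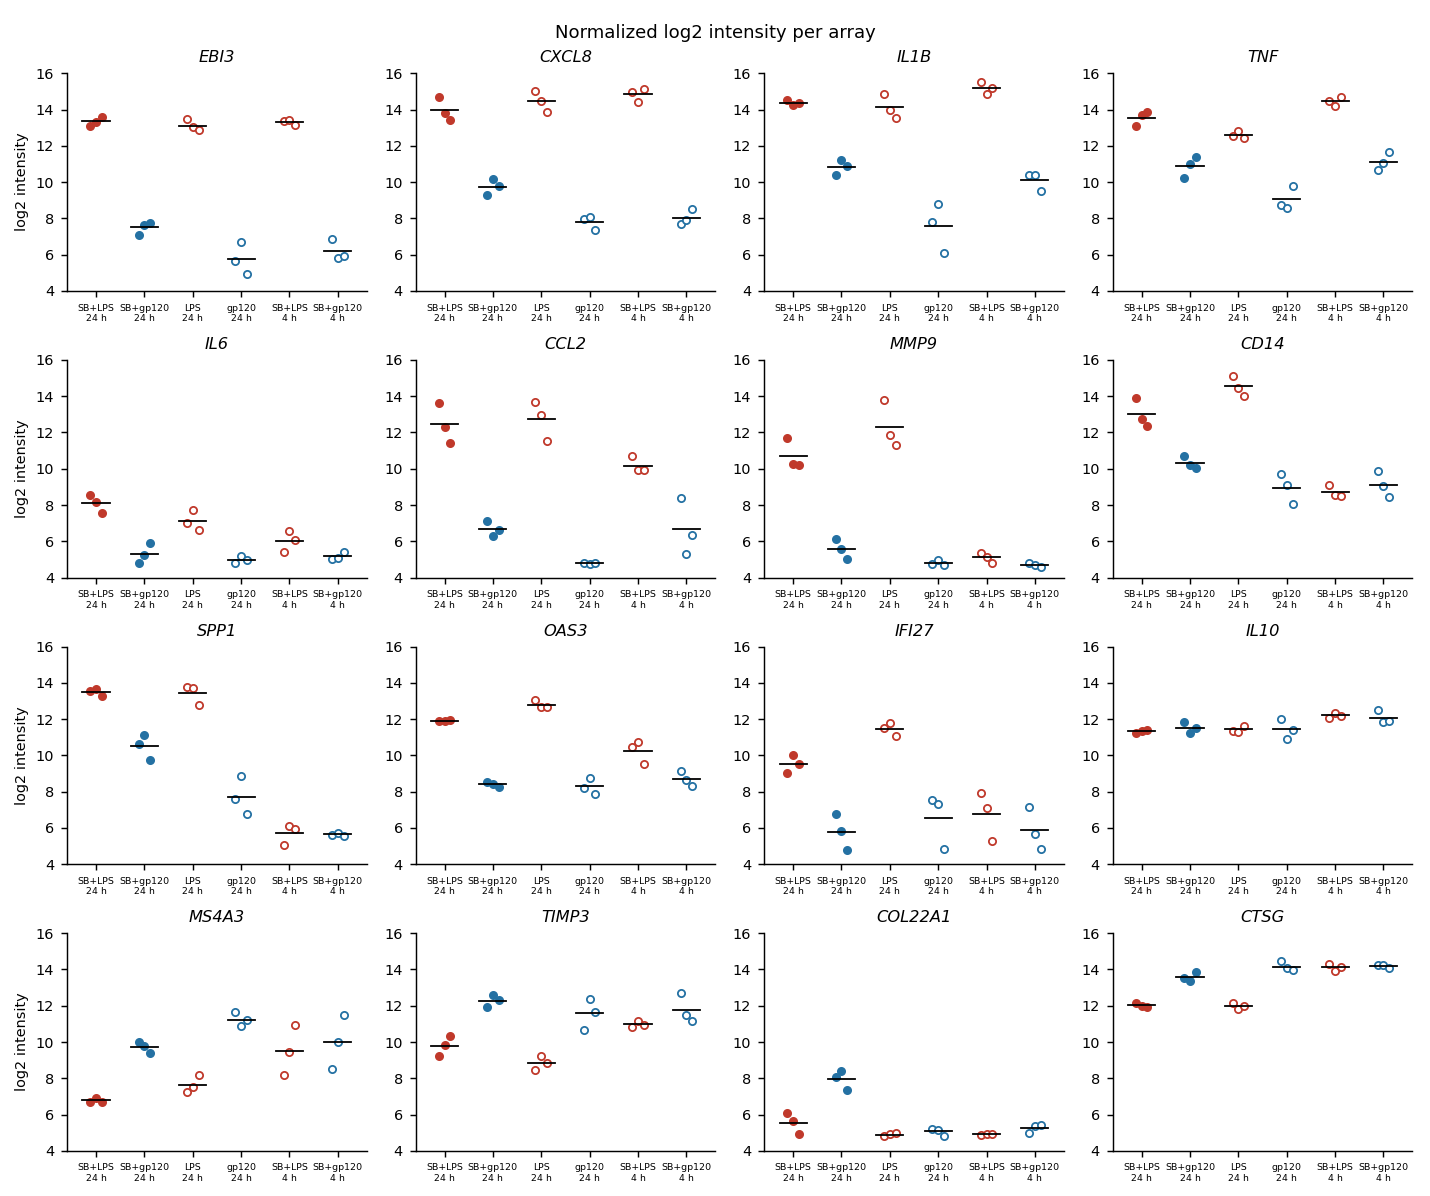
Normalized log2 intensity of 16 genes on each array, with a line at the mean of each group of 3 arrays. Filled points are SB+LPS (red) and SB+gp120 (blue) at 24 h, and open points the same stimuli without the inhibitor at 24 h and with it at 4 h. These pairs were on different slides, so heights are compared within a pair. SB+LPS lies above SB+gp120 in 11 panels and below it in MS4A3, TIMP3, COL22A1 and CTSG, and the pair overlaps in IL10.

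Genes of NF-kB and its feedback circuit rose with LPS in 13 of 19 cases and fell in 0, with a median of 1.23. The number that rose was 12 without SB+gp120 replicate 3. The atypical inhibitor BCL3 read 10.70, 11.16 and 10.92 in SB+LPS and 7.43, 8.01 and 7.46 in SB+gp120. The groups were far apart, and the difference was 3.29 (SE 0.341, adjusted p = 7.71e-08). NFKBIZ, a nuclear coactivator of secondary response genes, rose by 2.58 (SE 0.272). TNIP3, an A20-binding inhibitor, was not well above background in SB+gp120 and was at least 4.99-fold higher (adjusted p = 1.04e-07). The mitochondrial superoxide dismutase SOD2 read 14.01, 13.62 and 13.45 against 11.25, 11.22 and 11.25. Its SB+gp120 arrays were nearly equal and all lay below the SB+LPS arrays. SOD2 rose by 2.45 (SE 0.232, adjusted p = 1.43e-08). Its other kept probes had 3.05 and 0.41, the latter not called. IER3, an immediate-early gene that NF-kB induces, rose by 3.67 (SE 0.408, adjusted p = 2.74e-07).

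The promoters of a few of these genes are printed because they hold the NF-kB consensus motif within 250 bases upstream of the transcription start. Of the 391 higher genes 307 had a promoter in the RefSeq table (GRCh38.p14), and of the 231 lower genes 182. The motif was searched on both strands, and its matches could overlap those of the ISRE. It was present in 33 of the 307 (10.7%), in 9 of the 182 (4.95%), in 5.97% of the 10786 tested genes with a promoter and in 5.05% of all 27305 promoters. Among the called chemokines 4 of 7 held it (57.1%). The stretches below are from the strand of the gene, and capitals mark the match. The promoter of CXCL10 held 2 matches, of which 1 is shown. In IL23A the printed letters match on both strands, and the match of CCL20 reads on the opposite strand. The stretch of CCL20 (chr2:227813733-227813802) is on the plus strand and that of CXCL10 (chr4:76023580-76023649) on the minus strand. The stretch of IL6 is chr7:22727097-22727166 and that of IL23A chr12:56338759-56338828, both on the plus strand.
CCL20: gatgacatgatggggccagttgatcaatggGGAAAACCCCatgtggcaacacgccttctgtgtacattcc
CXCL10: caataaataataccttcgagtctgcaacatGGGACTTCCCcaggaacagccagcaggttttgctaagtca
IL6: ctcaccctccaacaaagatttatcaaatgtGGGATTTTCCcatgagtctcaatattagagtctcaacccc
IL23A: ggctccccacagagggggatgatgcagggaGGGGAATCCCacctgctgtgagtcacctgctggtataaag
A match describes these letters and does not show that a factor was bound.

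Interferon-stimulated antiviral genes were the most uniform group. Of 47 tested, 35 rose and 0 fell, with a median of 1.48, and 30 rose without SB+gp120 replicate 3. On all 3 arrays 41 of the 47 were higher in SB+LPS than on any SB+gp120 array. OAS3, which makes the second messenger that activates RNase L, read 11.87, 11.90 and 11.97 in SB+LPS. In SB+gp120 it read 8.55, 8.42 and 8.25. The arrays of each group were close together, and the groups differed by 3.51 (SE 0.3, adjusted p = 2.53e-09). IFI44, an interferon-induced protein, read 10.59, 10.74 and 11.07 against 7.50, 7.30 and 7.37. Again the groups were tight and apart, and the difference was 3.41 (SE 0.426, adjusted p = 2.34e-06). IFITM1, a membrane protein that restricts virus entry and belongs to a family of similar sequences, read 8.95, 9.80 and 9.88 against 6.16, 6.16 and 5.82. It was 3.50 higher (SE 0.452, adjusted p = 4.41e-06). IFI27 read 9.04, 10.04 and 9.52 against 6.79, 5.81 and 4.76. The SB+gp120 arrays of IFI27 were widely spread, yet all stayed below the SB+LPS arrays, and the difference was 3.75 (SE 0.781, adjusted p = 0.00255). OAS2, a second synthetase of the same family, rose by 2.94 (SE 0.403, adjusted p = 1.21e-05). No interferon-stimulated member was lower on all 3 arrays.

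Promoter stretches of 4 members with an ISRE match, written GAAANNGAAA and searched on both strands, are printed for their part in interferon responses. The motif was present within 250 bases upstream in 17 of the 27 called members of this list that had a promoter (63%). Over all called rises it was present in 32 of 307 (10.4%), over the falls in 3 of 182 (1.65%), over tested genes in 2.59% and over all promoters in 3.07%. None of the 10 called cytokines with a promoter had it. Capitals mark the matches, which in IFI44 and on 1 site of IFI27 read on the opposite strand. IFI27 (chr14:94110611-94110680) held 2 matches, both shown, and OAS3 held 2, of which 1 is shown. The stretches of IFI44 (chr1:78649741-78649788), IFITM1 (chr11:313970-314039) and OAS3 (chr12:112938432-112938473) are, like IFI27, on the plus strand.
IFI27: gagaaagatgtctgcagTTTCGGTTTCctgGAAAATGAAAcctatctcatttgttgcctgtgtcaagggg
IFI44: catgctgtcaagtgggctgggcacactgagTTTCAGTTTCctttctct
IFITM1: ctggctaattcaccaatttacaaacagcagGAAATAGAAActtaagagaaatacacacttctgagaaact
OAS3: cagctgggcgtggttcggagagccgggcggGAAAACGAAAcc
No match in other promoters says only that these letters are not in that window.

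Interferon receptors and transcription factors changed in fewer cases: of 23, 4 rose and 1 fell, with a median of 0.29. Leaving out SB+gp120 replicate 3, 3 rose and 1 fell. IRF7, the interferon regulatory factor that amplifies interferon production, read 11.38, 11.82 and 11.71 against 9.77, 10.28 and 9.83. It was higher on all SB+LPS arrays, by 1.68 (SE 0.381, adjusted p = 0.0057). IRF9, the DNA-binding part of the complex that recognises the ISRE, rose by 1.01 (SE 0.23, adjusted p = 0.00566), and by 1.18 with equal medians, where it was not called (adjusted p = 0.0502). The interferon gamma receptor chain IFNGR2 rose by 1.03. SOCS2, a suppressor of cytokine signalling, fell by 1.39. Among 7 guanylate-binding proteins and related GTPases 4 rose, with a median of 1.24. GBP2, which attacks vacuoles of intracellular pathogens, read 10.95, 11.47 and 11.59 against 9.15, 9.42 and 9.50. The groups did not overlap, and GBP2 rose by 1.98 (SE 0.349, adjusted p = 0.000369). GBP1 and GBP5 were not well above background in SB+gp120 and were at least 2.38-fold and 2.39-fold higher. The rise of GBP4, 1.24, was not called without SB+gp120 replicate 1 (1.01) or SB+LPS replicate 2 (1.12).

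In the list of LPS recognition and Toll-like receptors, 7 of 19 rose and 0 fell, with a median of 0.77, and 3 rose without SB+gp120 replicate 3. CD14, the LPS co-receptor, read 13.90, 12.74 and 12.35 in SB+LPS and 10.70, 10.18 and 10.04 in SB+gp120. Replicate 1 was the highest of both groups and the groups did not overlap. The rise was 2.69 (SE 0.538, adjusted p = 0.00164). TLR8, the endosomal sensor of single-stranded RNA, read 8.65, 8.86 and 8.34 against 5.96, 6.07 and 5.06. All SB+LPS arrays were clearly higher. TLR8 rose by 2.92 (SE 0.263, adjusted p = 5.48e-09). LY96, the TLR4 partner that binds lipid A, rose by 2.24 (SE 0.403, adjusted p = 0.000458). TLR2 rose by 0.95, a call that ended without SB+gp120 replicate 3 (0.75) or SB+LPS replicate 1 (0.69). TLR4 itself read 7.57, 7.20 and 7.01 against 6.97, 6.91 and 5.58. The groups were separate by a small margin and TLR4 was not called, at 0.77 (SE 0.303, adjusted p = 0.183). It was called with the replicate as a block (adjusted p = 0.0312).

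Matrix enzymes and secreted matrix proteins rose in 9 of 24 cases and fell in 1, with a median of 0.655. Leaving out SB+gp120 replicate 3, 7 rose and 1 fell. MMP9, the gelatinase of migrating leukocytes, read 11.72, 10.25 and 10.22 in SB+LPS and 6.15, 5.55 and 5.03 in SB+gp120. It was detected on 1 of the 3 SB+gp120 arrays and on all SB+LPS arrays. MMP9 was 5.15 higher (SE 0.399, adjusted p = 5.88e-10). SPP1, osteopontin, read 13.54, 13.64 and 13.28 against 10.65, 11.12 and 9.75. SB+gp120 replicate 3 was again the low array, and SPP1 rose by 2.98 (SE 0.495, adjusted p = 0.000174) or 2.60 without it. TNFAIP6, a hyaluronan-binding protein, rose by 2.58 (SE 0.424), while another kept probe of it had −0.19 and was not called. THBS1, thrombospondin, was at least 1.52-fold higher (adjusted p = 0.000861). TIMP3, an inhibitor of metalloproteinases, read 9.21, 9.83 and 10.31 against 11.93, 12.59 and 12.34. It was lower on every SB+LPS array. TIMP3 fell by 2.50 (SE 0.456, adjusted p = 0.000532), in the direction opposite to MMP9.

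Surface receptors and enzymes of the macrophage state formed smaller groups. NCF1 and CYBB, subunits of the phagocyte NADPH oxidase, rose by 2.82 (SE 0.421) and 2.59 (SE 0.462). The NCF1 probe may also bind its near-identical pseudogenes. NCF1 read 10.10, 9.67 and 10.18 against 8.11, 7.84 and 5.53. The value of SB+gp120 replicate 3 was far below its group, and NCF1 was 2.01 higher without it (adjusted p = 0.00031). TDO2, the tryptophan dioxygenase, rose by 2.01 (SE 0.382) and the NAD-synthesis enzyme NAMPT by 1.36, a call that ended without SB+gp120 replicate 1 (1.22) or SB+LPS replicate 3 (1.22). ICAM1, the adhesion molecule for leukocyte integrins, rose by 2.69 (SE 0.419, adjusted p = 7.27e-05). The costimulatory protein CD86 rose by 1.22 (SE 0.24), and CD80 was at least 2.08-fold higher. CD48, a ligand of lymphocyte receptors, was at least 2.98-fold higher (adjusted p = 2.6e-08). Of 12 genes of MHC class II and costimulation those 3 rose and 0 fell, with a median of 0.545, and 4 rose without SB+gp120 replicate 3. SLAMF7, a receptor of activated leukocytes, rose by 2.17 (SE 0.357), and CD163, the haemoglobin scavenger receptor of macrophages, by 1.30 (SE 0.168, adjusted p = 4.29e-06). The alarmin S100A12 read 9.75, 8.53 and 8.50 against 6.24, 5.49 and 4.86. Its groups did not overlap and the rise was 3.40 (SE 0.327, adjusted p = 1.81e-08). S100A12 was detected on 1 of the 3 SB+gp120 arrays, and its lowest value over the alternatives was 1.93.

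Cytosolic sensors and inflammatory caspases rose in 4 of 20 cases and fell in 1, or in 3 and 1 without SB+gp120 replicate 3. IFI16, a DNA sensor, rose by 2.70 (SE 0.305, adjusted p = 3.57e-07). CASP1, which cleaves the IL1B precursor, rose by 1.12 (SE 0.169), and CASP5, which binds cytosolic LPS, was at least 1.92-fold higher. STING1, the adaptor of cytosolic DNA signalling, fell by 0.58. It was not called without SB+LPS replicate 1 (−0.55) or with equal medians (−0.44, adjusted p = 0.825). PTGS2, the inducible prostaglandin synthase, read 9.91, 9.50 and 9.47 against 8.53, 8.19 and 8.41. The arrays did not overlap, and PTGS2 rose by 1.25 (SE 0.318, adjusted p = 0.0152). That call ended without SB+gp120 replicate 2 (1.16), SB+gp120 replicate 3 (1.27) or SB+LPS replicate 1 (1.11). IGFBP3, a carrier of insulin-like growth factors, rose by 3.45 (SE 0.356, adjusted p = 7.51e-08). HBEGF, a ligand of the epidermal growth factor receptor, rose by 1.72 (SE 0.36). The glucose transporter SLC2A6 rose by 2.43 (SE 0.22, adjusted p = 5.48e-09), and 3 of 25 genes of glucose transport and glycolysis rose in all. The metallothionein MT2A rose by 1.74 (SE 0.284). RIPOR2, a regulator of cell polarity, was at least 8.07-fold higher (adjusted p = 4.63e-09), and RGS1, which dampens chemokine receptor signalling, rose by 3.27 (SE 0.399).

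Receptors that gp120 can use were looked at next. CD4 had a difference of 0.33 (adjusted p = 0.582) and CXCR4 of 0.89 (adjusted p = 0.435). CXCR4 read 7.32, 7.52 and 7.40 against 7.37, 6.92 and 5.26. The groups overlapped, and SB+gp120 replicate 3 was the low array. Of 13 chemokine and chemoattractant receptors with CD4, 3 rose, and 0 were called without that array with limma's test. The 3 were PTAFR at 1.17, C5AR1 at 1.48 and CCR7, which was at least 1.08-fold higher, and leaving out any of several other single arrays also ended these calls. Without SB+gp120 replicate 3 the fitted log2 differences of PTAFR, C5AR1 and CCR7 were 1.28, 1.37 and 1.19. Among 22 kinases, substrates and mRNA-binding proteins of the p38 pathway 1 rose and 0 fell, with a median of −0.00298. The one was ZFP36L1, which promotes decay of AU-rich mRNAs, at 0.73 (SE 0.172), and its call ended without SB+gp120 replicate 1 (0.58) or SB+LPS replicate 3 (0.60). DUSP1, a phosphatase of p38, had a difference of 0.60 (adjusted p = 0.475). MAPK14, which encodes the inhibitor's main target, was not among the genes tested.

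The falls were fewer and smaller. With equal medians 38 genes were called lower in place of 231, and 9 of the 23 named falls lost their call. MS4A3, a membrane protein of granulocyte and monocyte progenitors, read 6.70, 6.93 and 6.72 in SB+LPS and 9.99, 9.80 and 9.37 in SB+gp120. The groups were tight and well apart. MS4A3 fell by 2.94 (SE 0.71, adjusted p = 0.0103), which was −2.84 and not called with equal medians (adjusted p = 0.0651). Its other kept probes had −2.53 and −1.29, neither of them called, and the mean of its probes was not called either (−2.25, adjusted p = 0.0606). COL22A1, a collagen of tissue junctions, read 6.08, 5.65 and 4.95 against 8.07, 8.42 and 7.33. It was detected on 1 SB+LPS array and on all SB+gp120 arrays. The fall was 2.38 (SE 0.269, adjusted p = 3.65e-07). BCL2, the survival protein, read 10.18, 10.33 and 10.42 against 11.81, 12.01 and 12.18. The groups were tight and apart, and BCL2 fell by 1.69 (SE 0.343, adjusted p = 0.0019), or 1.54 with equal medians, not called (adjusted p = 0.056). SKIDA1, a gene of the SKI and DACH domain family, fell by 1.95 (SE 0.292, adjusted p = 4.49e-05), the sodium pump subunit ATP1B1 by 1.66 (SE 0.285, adjusted p = 0.000271), the transcription factor KLF2 by 1.64 (SE 0.33; 1.48 and not called with equal medians) and the complement protease C1S by 1.5 (SE 0.262). USH1C, a scaffold protein, was not well above background in SB+LPS and at least 2.67-fold lower. Caveolin, CAV1, fell by 1.73, a call that ended without SB+gp120 replicate 3 (−1.65) or SB+LPS replicate 1 (−1.52). It also ended with equal medians (−1.59, adjusted p = 0.207).

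Other falls among the largest were less stable or less well characterised. The long non-coding RNA MIR1915HG fell by 1.70 (SE 0.326, adjusted p = 0.00104), and CFC1B, whose probe may also bind its paralog, fell by 1.81 (SE 0.261, adjusted p = 2.48e-05). The centrosomal protein CEP70 fell by 2.25, and was not called without SB+LPS replicate 3 (−2.07). PPP1R27, a regulatory subunit of a protein phosphatase, fell by 2.09, and was not called without SB+gp120 replicate 2 (−1.75) or SB+LPS replicate 1 (−1.80). With equal medians PPP1R27 had −1.95 and was not called (adjusted p = 0.107). The inhibitory receptor CD300LF fell by 1.86 and the potassium channel subunit KCNS1 by 1.84, and both calls ended without SB+gp120 replicate 3, at −1.64 and −1.48. They also ended without SB+LPS replicate 2 (CD300LF, −1.69) or SB+LPS replicate 1 (KCNS1, −1.70). The calcium channel subunit CACNA2D3 fell by 1.98 (adjusted p = 0.0475), and was called only with all arrays or without SB+LPS replicate 1 among the fits that left out 1 array. Without SB+gp120 replicate 3 it had −2.13. IL1RAP, the accessory chain of the interleukin receptor, fell by 0.76, and was not called without SB+gp120 replicate 3 (−0.64) or SB+LPS replicate 3 (−0.65). Another kept probe of IL1RAP had 0.08, and the mean of its probes was not called (−0.34). With equal medians IL1RAP had −0.57 and was not called (adjusted p = 0.678).

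Further rises completed the lists. SPRY4, an inhibitor of receptor kinase signalling, rose by 1.94 (SE 0.316), the anticoagulant receptor THBD by 1.79 (SE 0.361), the protease inhibitor SERPINA1 by 1.69 (SE 0.3) and the iron transporter SLC11A2 by 0.97 (SE 0.214). IL18R1, a receptor chain for interleukin 18, was at least 2-fold higher (adjusted p = 0.00175). The hexokinase HK1 rose by 0.90 (SE 0.168) and the glycolytic regulator PFKFB3 by 0.85 (SE 0.19), and like SLC11A2 both were not called with equal medians. The transcription factor JUNB rose by 1.53 and was not called without SB+gp120 replicate 3 (0.95) or SB+LPS replicates 1 (1.51) or 2 (1.46). SPRED1, an inhibitor of ERK signalling, rose by 1.16 and was not called without SB+gp120 replicate 3 (0.93) or SB+LPS replicate 1 (1.05). The complement protein C3 was at least 1.38-fold higher and was not called without SB+LPS replicate 1 (0.89). The zinc transporter SLC39A8 (0.85) and the leukotriene cofactor ALOX5AP (1.04) each lost their call without SB+gp120 replicate 2 or SB+LPS replicate 1, SLC39A8 also without SB+LPS replicate 2 and ALOX5AP also without SB+gp120 replicate 3. The immunoproteasome subunit PSMB9 (0.98), the peptide-loading factor TAPBP (0.73), the thromboxane synthase TBXAS1 (0.94), the survival protein BCL2A1 (1.43), the scavenger receptor MARCO (1.29) and the inhibitory receptor LILRB2 (at least 2.09-fold) were called with all arrays. Each lost its call without SB+gp120 replicate 3, at 0.93, 0.52, 0.78, 1.27, 1.12 and 1.38, and also without at least 2 other single arrays.

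Granule proteins and regulators of myeloid progenitors had the lowest median of the lists shown, −0.34, with 3 of 18 called lower and 0 higher. The number called lower was 4 without SB+gp120 replicate 3. CTSG, cathepsin G of neutrophil granules, read 12.18, 12.01 and 11.93 in SB+LPS. In SB+gp120 it read 13.51, 13.37 and 13.86. The arrays of each group lay close together, and CTSG fell by 1.54 (SE 0.164, adjusted p = 1.1e-07). ELANE, neutrophil elastase, fell by 0.96 (SE 0.178, adjusted p = 0.00062). The progenitor transcription factor MYB fell by 0.74 (SE 0.18, adjusted p = 0.0107). It was not called when SB+gp120 replicate 1 (−0.65) or SB+LPS replicate 2 (−0.71) was left out. With equal medians MYB had −0.62 and was not called (adjusted p = 0.732). Proliferation genes showed little: of 35 genes of cell cycle and mitosis 1 rose and 0 fell (median −0.11), and of 33 genes of DNA replication 0 were called (median −0.02, with 2 at an unadjusted p under 0.05). The one was cyclin D, CCND1, at 1.67 (adjusted p = 0.0255), which was not called without any of SB+gp120 replicates 1 (1.64) and 3 (1.59) or SB+LPS replicates 1 (1.72), 2 (1.57) and 3 (1.74). With limma's test 0 of 29 respiratory chain genes were called, with 0 at an unadjusted p under 0.05. No call was made either in cholesterol synthesis (0 of 18, with 1 at such a p) or ribosome biogenesis (0 of 26, with 2). NRF2 targets (0 of 16, with 3) and the unfolded protein response (0 of 23, with 3) had none. A list of further HIV restriction and dependency factors had none as well (0 of 15, with 0). Restriction factors such as BST2, TRIM5, APOBEC3G and SAMHD1 were not in it. They were placed in the interferon-stimulated list, where 35 of 47 rose. That count does not say which of these factors rose, and their own values are not given here.

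**Figure D3:**
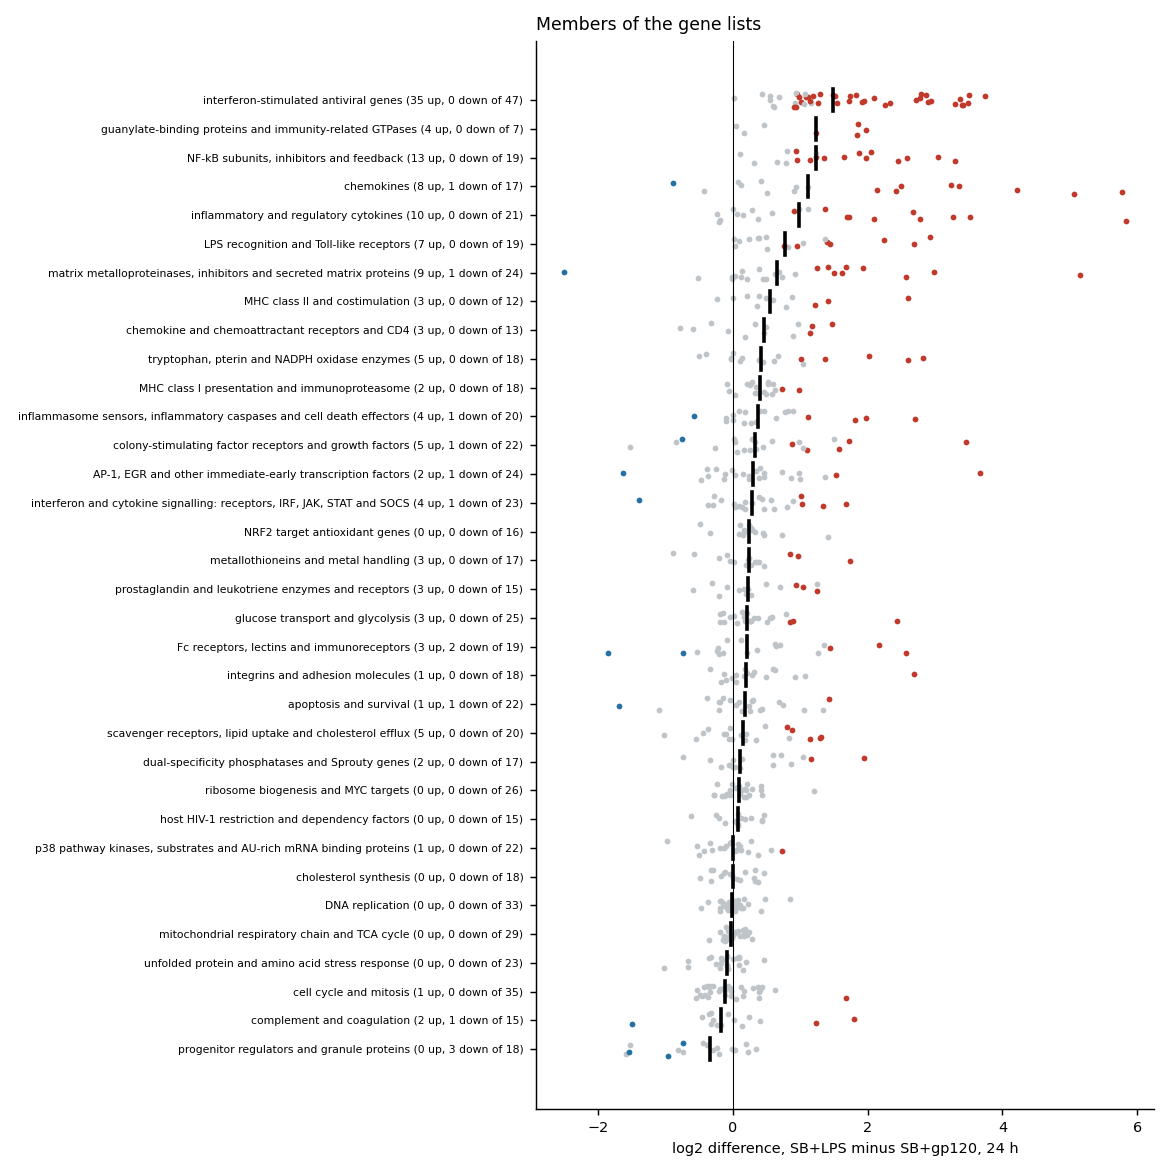
Each point is 1 tested gene of a list, placed by its log2 difference between SB+LPS and SB+gp120 at 24 h. Red and blue points were called higher and lower, and the black bar is the median of the list. The interferon-stimulated list has the highest median, 1.48 with 35 of 47 called higher, and the progenitor list the lowest, −0.34 with 3 of 18 called lower. Without SB+gp120 replicate 3 the guanylate-binding protein list had the highest, 1.52 against 1.38. A gene may belong to more than 1 list.

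The same stimuli without the inhibitor, LPS against gp120 at 24 h within slide 1, differed in 1867 genes (13.7%), of which 971 were higher (7.15%) and 896 lower (6.6%). It was 1173 without LPS replicate 1 and 2941 with the replicate as a block. This comparison used no array of the SB pair. Of the 391 genes higher in SB+LPS, 352 (90%) were also called higher without the inhibitor, which is 36.3% of the 971. For the 231 lower genes the shared number was 177 (76.6%, or 19.8% of the 896). The 391 had a median of 1.39 with the inhibitor and 1.86 without it, and 300 of them had the smaller difference with it. Interferon-stimulated genes had a median of 1.48 with and 2.37 without SB203580, with 35 and 41 of 47 called, and 42 of the 47 had the smaller difference with it. Over all genes 6533 of 13582 had the lower signed difference with it, a count that for falling genes means a larger fall. The interaction test described next, without the replicate as a block, called 0 of the 47 interferon-stimulated genes with limma. With that block it called 191 of all genes in place of 24, and this list was not counted there. Chemokines had medians of 1.12 and 2.62, NF-kB genes of 1.23 and 1.64, and cytokines of 0.98 and 1.08. Genes of MHC class II and costimulation rose in 3 of 12 cases with and 10 of 12 without the inhibitor. IL6 had 2.77 with and 2.16 without it, and the test of the difference gave an adjusted p of 0.809.

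The difference between those comparisons was tested gene by gene as an interaction within the same fit. It called 24 genes (0.177%), 22 with a lower signed difference in the presence of SB203580 (0.162%) and 2 with a higher one (0.0147%). Of the 24, 8 were among the 10 called without SB+gp120 replicate 3. Other single arrays moved the count as well: it was 14 without gp120 replicate 1, 14 without gp120 replicate 2, 12, 14 and 46 without LPS replicates 1, 2 and 3, and 13 and 11 without SB+LPS replicates 2 and 3. The replicate as a block gave 191 calls, and equal medians left 2, CXCL13 and OLR1. An interaction of this kind cancels an additive difference between the slides where both stimuli read above background. A group at background need not carry that difference, so it need not cancel there.

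CXCL13 had the smallest p. Without the inhibitor it read 10.59, 9.61 and 10.12 with LPS, and with the inhibitor 7.08, 7.66 and 8.28, against values at background with gp120 in both. All 3 LPS arrays without the inhibitor were above all 3 with it, but these arrays were on different slides. The gp120 side was at background in both comparisons, so the fitted interaction of −2.69 (SE 0.298, adjusted p = 8.48e-06) reads the LPS arrays against a floor. Its size is not a measured ratio, and the inhibitor and the slide cannot be told apart in it. OLR1, the receptor for oxidised LDL, read 8.59, 8.43 and 7.70 with LPS alone and 6.04, 5.93 and 6.01 with SB+LPS. Its gp120 side was again at background, with the same limits on the size and on the slides. The fitted interaction was −2.37 (SE 0.367, adjusted p = 0.00132). SLAMF8, a receptor of the SLAM family on macrophages, rose by 5.64 without and by 2.57 with the inhibitor. For SLAMF8 the LPS arrays read 11.51, 11.21 and 10.53 without and 10.47, 10.32 and 9.81 with SB203580, and the gp120 arrays 6.02, 5.45 and 4.86 without and 7.44, 7.54 and 7.90 with it. Both sides of the difference moved, down with LPS and up with gp120, and these levels were on different slides. The interaction was −3.07 (SE 0.485, adjusted p = 0.00142). ZFP36L1 had an interaction of −1.56 (SE 0.243, adjusted p = 0.00132), with 2.29 without and 0.73 with the inhibitor. CXCL10, at background with SB+gp120, had a fitted −1.91 (SE 0.377, adjusted p = 0.0195), which missed the threshold without SB+gp120 replicate 3 (adjusted p = 0.0567). The promoter of SLAMF8 held 1 NF-kB consensus match, shown in the printed stretch (chr1:159826767-159826836, plus strand, capitals mark the match).
SLAMF8: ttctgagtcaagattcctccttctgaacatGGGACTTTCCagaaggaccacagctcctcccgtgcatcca

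**Figure D4:**
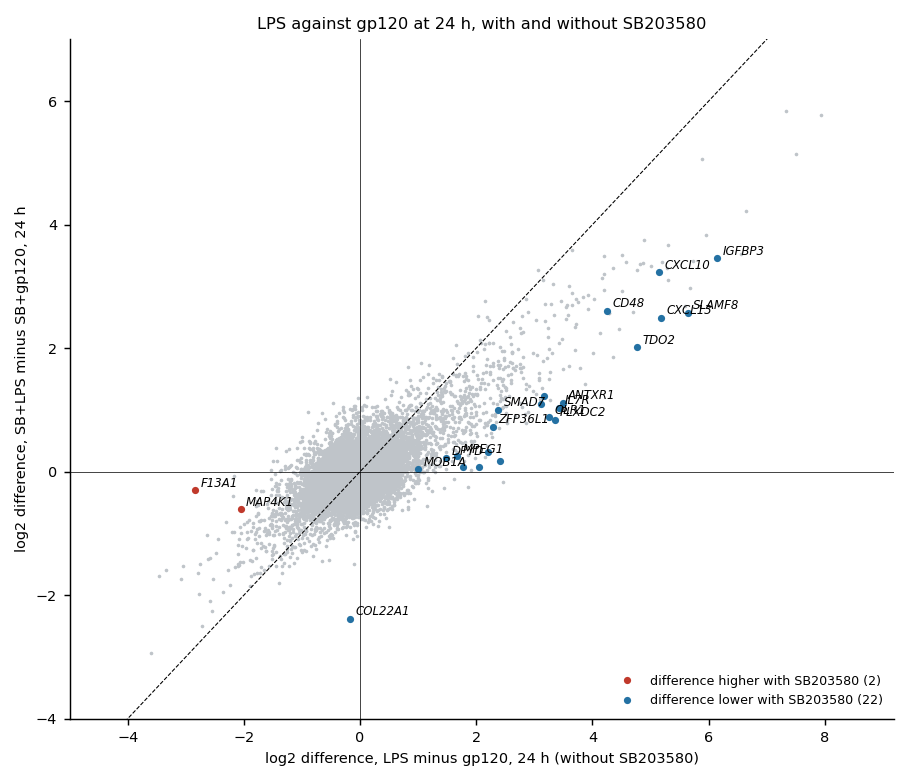
Each point is 1 gene. The horizontal axis is the log2 difference between LPS and gp120 at 24 h without SB203580 and the vertical axis the same difference with it, with a dashed line where both are equal. Coloured points are the 24 genes called in the interaction, 22 lower with the inhibitor and 2 higher. Most of the large rises lie below the line, and COL22A1 lies apart, at −2.38 with SB203580 and near 0 without it, where both groups were at background.

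COL22A1 was the interaction gene whose difference arose with the inhibitor. It was not above background with LPS or gp120 without SB203580 at 24 h, nor with SB203580 at 4 h. The 3 SB+gp120 arrays of 24 h, at 7.33 to 8.42, were the high ones. The fitted interaction of COL22A1 was −2.21 (SE 0.381, adjusted p = 0.00458), against background without the inhibitor. The genes with a higher value of the interaction were F13A1, a coagulation transglutaminase, and MAP4K1, a kinase of haematopoietic cells. F13A1 was not above background with LPS in either case and was detected on 1 of the 3 SB+gp120 arrays, so the size of its fitted interaction, 2.54, rests on a floor. The interaction was called without gp120 replicate 3 (2.91) and without SB+gp120 replicate 1 (2.99), and not without any other single array, with 2.20 at the lowest, without gp120 replicate 1 (adjusted p = 0.129). MAP4K1 had −2.06 without and −0.61 with the inhibitor.

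At 4 h the comparison of SB+LPS with SB+gp120, within slide 3, called 1650 genes (12.1%), 699 higher (5.15%) and 951 lower (7%). The count was 1043 without SB+LPS replicate 1 of that time, 2597 with the replicate as a block and 481 when only the groups compared entered the fit. Of those 481, 323 were higher and 158 lower, so that 67.2% were higher in place of 42.4%. With equal medians the median gene shifted by −0.40, and 16.9% of the calls were higher. This comparison shared no array with the pair at 24 h. Of the 391 genes higher at 24 h 176 (45%) were called higher at 4 h too, 25.2% of the 699, and 10 were called lower. Of the 231 lower ones 55 (23.8%, or 5.78% of the 951) were lower at 4 h and 4 were higher. The groups of genes had different balances at the 2 times. NF-kB genes had a median of 2.43 at 4 h and 1.23 at 24 h, with 16 and 13 of 19 called higher. Interferon-stimulated genes had 0.76 at 4 h and 1.48 at 24 h, with 21 and 35 of 47 called. LPS recognition genes had −0.02 at 4 h and 0.77 at 24 h.

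The test of the difference between times called 613 genes (4.51%), of which 336 had the larger signed value at 24 h (2.47%) and 277 the smaller (2.04%). It called 378 without SB+gp120 replicate 3 of 24 h, 1414 with the replicate as a block and 326 with only the groups compared. With equal medians it called 346, 88.2% of them higher at 24 h in place of 54.8%, and the median of all genes moved by 0.55. The slides of the 2 times differed, and an additive slide effect cancels in this test too where both stimuli read above background.

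Late genes were led by MMP9. It was not above background at 4 h in either group and had 5.15 at 24 h, so that the later difference exceeded the earlier by 4.75 (SE 0.564, adjusted p = 3.53e-06). S100A12, RIPOR2 and RGS1 had the same pattern, with SB+LPS at background at 4 h and differences between times of 3.44, 3.51 and 3.19. CD14 read 9.08, 8.57 and 8.51 with SB+LPS at 4 h against 9.88, 9.04 and 8.45 with SB+gp120. The groups overlapped at 4 h and were apart at 24 h. The difference between times was 3.09 (SE 0.761, adjusted p = 0.0139), and it was not called without SB+LPS replicate 1 of 24 h (2.63) or SB+gp120 replicate 1 of 4 h (2.71). TLR8 had −0.12 at 4 h and 2.92 at 24 h, and SPP1 0.05 and 2.98. In the list of inflammasome sensors and caspases 7 of 20 had a higher difference at 24 h and 1 a lower one, and in the LPS recognition list 6 of 19 and 1.

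Early genes lay on the other side. CCL4L1 read 14.48, 13.08 and 14.09 with SB+LPS at 4 h against 5.81, 5.38 and 4.98. The groups were farther apart than at 24 h. Its difference was 8.49 at 4 h and 3.83 at 24 h (difference between times −4.66, SE 0.562, adjusted p = 4.52e-06). TNFAIP6 went from 7.12 at 4 h to 2.58 at 24 h and IL23A from 6.98 to 3.27. IRAK2, a kinase of Toll-like receptor signalling, went from 5.24 to 1.44, and MAP3K8, a kinase upstream of ERK, from 5.10 to 1.31. IRAK2 was not called at 24 h without SB+gp120 replicate 3 (1.52). CD40, a costimulatory receptor, had 4.72 at 4 h and 0.88 at 24 h, the latter not called. DNAAF1, an assembly factor of ciliary dynein, read 9.93, 9.07 and 9.29 with SB+LPS at 4 h and was not above background with either stimulus at 24 h. The elongase ELOVL7 had 4.25 at 4 h and 0.07 at 24 h. EBI3 had 7.10 at 4 h and 5.84 at 24 h, and its difference between times of −1.26 (SE 0.531) was not called (adjusted p = 0.193).

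The 14 genes called in opposite directions at the 2 times were few enough to name after their values were seen. Higher at 24 h and lower at 4 h were SLA, an adaptor that dampens receptor signalling (1.95 and −1.74), CSF1R, the receptor of macrophage colony-stimulating factor (1.10 and −1.14), the matrix proteoglycan VCAN (1.41 and −1.63), the zinc finger gene ZNF589 (1.19 and −2.23), TMEM243, ST3GAL6, RBM38, PKIB, MYOF and ACAD8. Their values at 24 h were 1.37, 1.58, 1.49, 1.44, 1.00 and 0.52, and at 4 h −1.61, −1.02, −1.29, −1.28, −0.83 and −0.66. Lower at 24 h and higher at 4 h were ATP1B1 (−1.66 and 2.12), RBM24 (−1.10 and 2.22), the small GTPase RHOB (−0.89 and 1.60) and HSPA12A (−1.26 and 1.19). Without SB+gp120 replicate 3 of 24 h the calls at 24 h held for 5 of the 14, SLA, TMEM243, ST3GAL6, PKIB and ATP1B1, and not for 9. SLA read 11.99, 11.55 and 11.28 against 10.16, 9.82 and 8.98 at 24 h, and 8.23, 8.83 and 7.60 against 10.42, 10.03 and 9.45 at 4 h. The groups were apart at both times, with the order turned. For SLA the times differed by 3.70 (SE 0.518, adjusted p = 2.84e-05). The value of ZNF589 at 24 h was 0.66 without SB+gp120 replicate 3 and was not called (adjusted p = 0.546). CD300A, an inhibitory receptor, was lower by 2.81 at 4 h and had 1.26 at 24 h, the latter not called.

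**Figure D5:**
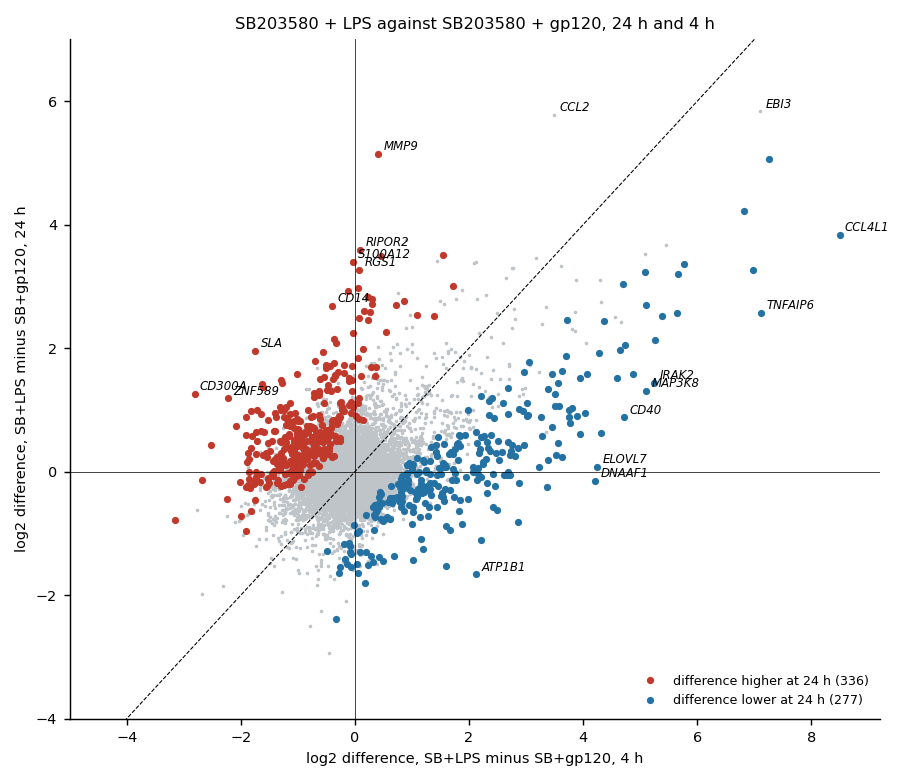
Each point is 1 gene. The horizontal axis is the log2 difference between SB+LPS and SB+gp120 at 4 h and the vertical axis that at 24 h, with a dashed line where both are equal. Red points are the 336 genes higher on this scale at 24 h than at 4 h, and blue points the 277 lower. MMP9 stands high on the vertical axis near 0 at 4 h, CCL4L1 and TNFAIP6 lie far to the right, and ATP1B1 and SLA have opposite signs at the 2 times.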

How the data were processed

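RNA of THP-1 cells was hybridised as biotinylated cRNA to Illumina HumanHT-12 v4 bead arrays. Raw values came from a deposited table of 36 arrays and 47222 probes. Per the file headers it holds mean bead intensity. A detection p-value stands beside each deposited intensity, and 72 further columns were not used. The authors also deposited a log2 value table. All 36 of its columns matched their own array's raw signal best, its column medians were 7.014 to 7.015, and its values lay within 0.0986 of the quantile-normalized log2 intensity. The study names GeneSpring GX, and the exact steps are not given in the sources used here.

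Background correction, quantile normalization and the log2 scale came from neqc (limma 3.58.1, R 4.3.3). Its offset was 16, and negative controls were inferred from detection p-values. Probes with a detection p under 0.05 on at least 3 arrays were kept (26473, of which 18426 had 1 gene symbol), and each gene took its brightest probe, which gave 13582 genes. On the array 30112 probes had 1 symbol, 8 several and 17102 none. Symbols were updated by gene ID for 30073 probes from a RefSeq table. Of the genes tested 3777 had more than 1 kept probe, and none had probes called in both directions at 24 h. Probes of a gene could still differ in size or call, as in TDO2 (2.015 and 0.852, the latter not called). With the mean of a gene's probes 7 named genes lost their call in the SB pair.

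A model with 1 mean per group over all 36 arrays was fitted with lmFit and eBayes, so p-values rest on the spread pooled over all groups. A gene was called where its two-sided p, adjusted by Benjamini-Hochberg over all genes of a contrast, was under 0.05. There were 7 contrasts, 2 of them interactions. With 3 arrays a side the smallest p of an exact permutation test is 0.1. All values are normalized log2 intensities, and n = 3 arrays a group throughout. SEs are those of the limma fit. Of the 622 genes called, 56 were not above background in 1 group. Signals close to background limit the size of a fold, and the number of arrays limits precision. Levels of different probes are not compared.

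The comparison, 34 gene lists and the named genes were chosen with earlier results of these data known. The genes named follow a rule. It took the 15 largest rises and falls among called genes with no overlap of arrays, and up to 4 called members a list. A fixed set of genes was added, with the 8 highest and 8 lowest called genes of each interaction. Only 2 genes had a higher interaction with SB203580, so most of its 8 highest had a lower one. CCL23, JAML, PTPRG and the genes called in opposite directions at 4 h and 24 h were named after their values were seen. Promoter letters came from RefSeq, GRCh38.p14. Pairing of replicate numbers was checked by correlating deviations from group means: same numbers had 0.301, 0.117 and 0.127 in the SB pair at 24 h, each array being closest to its own number, at least 0.132 without the inhibitor and at least 0.138 at 4 h, with the groups sharing replicate numbers in the labels. The test was tried on simulated data first. Alternatives were other background corrections, scalings, filters, probe rules, fits, and leaving out each array.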

Additional observations from a re-analysis of the deposited data

Results flagged for a closer look

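The difference between LPS and gp120 at 24 h was not the same with and without SB203580 for 24 genes in the interaction test of limma. The call held under leaving out each single array for SLAMF8 (−3.07), CXCL13 (−2.69), OLR1 (−2.37), ANTXR1, an anthrax toxin receptor (−2.37), and ZFP36L1 (−1.56), and with equal medians it held for CXCL13 and OLR1. ANTXR1 rose by 1.12 with the inhibitor and by 3.49 without it, on its brightest probe. Its other kept probes had 0.36, 0.05 and 0.26 with the inhibitor, none of them called. COL22A1 had a fitted −2.21, and its call held without SB+gp120 replicate 3 (adjusted p = 0.00168). Of genes outside the naming rule, JAML (−1.87) and PTPRG (−1.69) also kept their calls without that array (adjusted p = 0.00407 and 0.015). CXCL13, OLR1, JAML, CD48, COL22A1 and F13A1 were at background in some of the groups, so the sizes of their interactions rest on a floor. A difference between the slides need not cancel for them.

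The calls of 9 more genes with a lower difference ended when any of several single arrays was left out, SB+gp120 replicate 3 among them. They were TDO2 (−2.75), IGFBP3 (−2.70), PLXDC2 (−2.50), the interleukin receptor IL7R (−2.40), CD48 (−1.65), the pore-forming protein MPEG1 (−1.43), the inhibitor of TGF-beta signalling SMAD7 (−1.37), the pyrimidine-degrading enzyme DPYD (−1.26) and the Hippo pathway adaptor MOB1A (−0.97). Without SB+gp120 replicate 3 their values were −2.44, −2.55, −2.59, −2.18, −1.64, −1.36, −1.33, −1.27 and −0.93. MAP4K1 (1.45) and F13A1 (2.54) had a higher signed difference with the inhibitor, and both calls ended without that array, at 1.29 and 2.27. Their higher value stands for a smaller fall: −2.06 without and −0.61 with SB203580 for MAP4K1, −2.84 and −0.30 for F13A1.

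The difference between SB+LPS and SB+gp120 changed between 4 h and 24 h for 613 genes. Among those named it was lower at 24 h for CCL4L1 (−4.66), TNFAIP6 (−4.54), DNAAF1 (−4.36), ELOVL7 (−4.18), CD40 (−3.84), IRAK2 (−3.80), MAP3K8 (−3.80) and ATP1B1 (−3.78). It was higher at 24 h for CD14 (3.09), RGS1 (3.19), ZNF589 (3.42), S100A12 (3.44), RIPOR2 (3.51), SLA (3.70), CD300A (4.07) and MMP9 (4.75). These calls held under every alternative tried, except that of CD14, which ended without SB+LPS replicate 1 of 24 h (2.63) or SB+gp120 replicate 1 of 4 h (2.71).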

How the results depend on the processing

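No named gene changed direction in any of the alternatives tried, while medians of 7 lists that lay below 0 turned sign in at least 1 of them (such as DNA replication, −0.0192 and 0.159 with equal medians). The median of all genes in the SB pair turned from −0.0355 to 0.0919 with equal medians, and the share of higher calls at 4 h from 42.4% to 67.2% with only the groups compared. Scaling to equal medians in place of quantile normalization gave 359 calls in place of 622 in the SB pair at 24 h, 996 without the inhibitor (43.5% higher in place of 52%), 2 in the interaction with SB203580 and 346 in that with time. The median gene shifted by 0.127, −0.237, 0.393 and 0.547 in these, and by −0.403 at 4 h. Fitting only the groups compared gave 481 calls at 4 h, 8 in the interaction with SB203580 and 326 in that with time. With the replicate block the counts were 1264 in the SB pair, 2941 without the inhibitor, 2597 at 4 h, 191 in the interaction with SB203580 and 1414 in that with time, and 0 in both gp120 comparisons; of the named genes not called at 24 h, TLR4 gained a call. Leaving out 1 array gave 370 to 604 calls in the SB pair, 1173 to 1819 without the inhibitor, 1043 to 1687 at 4 h, 10 to 46 and 378 to 697 in the interactions with SB203580 and time, 0 for gp120 against control and 0 to 1 for SB+gp120 against SB203580 at 4 h. Other settings gave 590 to 654 calls in the SB pair. Of 106 named called genes 68 kept their call under all alternatives, 22 lost it without SB+gp120 replicate 3 and 22 with equal medians. The count of list members without that array was added after seeing the data. The cause of these shifts was not tested. Signals near background limit the folds of the 56 called genes that were not above background on any array of 1 group. Genes detected on only 1 array of a group, such as MMP9 and IL6, are near background as well and are not in that count.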
